A study of Homo sapiens with 2 samples.

Results

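The cells described here are the cardiomyocytes that carried Hashtag7, 1 of 13 antibody-borne barcodes (hashtags) in a single pool of stem cell-derived cardiomyocytes, set beside the cardiomyocytes that carried Hashtag3, Hashtag5, Hashtag6, Hashtag8 or Hashtag9. A cell was a member when it had at least 500 genes, at least 1000 unique molecular identifiers (UMIs, each standing for 1 captured RNA molecule), at most 25% mitochondrial UMIs, and at least 20000 CPM (a gene's UMIs per 1000000 gene UMIs) summed over the contractile genes TNNT2, ACTN2, TTN, TNNC1, MYL4, MYL7 and MYBPC3. Its hashtag had to hold at least 70% of at least 20 hashtag UMIs. Of 1378 filtered cells given to Hashtag7, 1103 passed this contractile gate (80.0%, exact 95% interval 77.8 to 82.1). The whole matrix held 24038 barcodes, of which 21623 passed the cell filter, 10319 were also given to 1 hashtag and 8015 of those passed the gate. The compared hashtags contributed 555 (Hashtag3), 907 (Hashtag5), 796 (Hashtag6), 600 (Hashtag8) and 372 (Hashtag9) gated cells, 3230 together.

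All cells came from H9, a human embryonic stem cell line that here carries the fluorescent calcium reporter gCaMP6f, at day 15 of cardiac differentiation. They had been frozen, thawed in medium with serum and the ROCK inhibitor Y-27632, blocked, stained with 1 hashtag antibody per sample, and pooled before 10x Genomics capture. The labels do not say what was done to the sample behind any hashtag, so all 6 hashtags share the line, reporter, freezing and thawing, and nothing further is known of how they differ. Each hashtag is therefore 1 unassigned sample: values are given hashtag by hashtag, always in the order Hashtag3, Hashtag5, Hashtag6, Hashtag8 and Hashtag9, with no test and no p-value. Hashtag7 was selected on the levels of IRX1 and ALCAM, and its cells were chosen by the contractile gate and the hashtag UMIs. The selection was made because earlier values of this same matrix differed there, so no gene value below is independent of that choice, and all are descriptions.

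Iroquois proteins (IRX1 to IRX6) are homeodomain transcription factors encoded in a pair of gene clusters, IRX1, IRX2 and IRX4 on chromosome 5 and IRX3, IRX5 and IRX6 on chromosome 16. In the developing heart IRX4 marks ventricular muscle, whereas IRX1, IRX2, IRX3 and IRX5 are known from the septum, the trabecular layer and the conduction system. ALCAM (CD166) is an immunoglobulin-family adhesion protein found on early cardiomyocytes. Metallothioneins are small cysteine-rich proteins that bind zinc and copper and are induced through metal response elements in their promoters.

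Promoters are shown for genes on either side of the comparison, since IRX1 and IRX2 were among the leading higher genes and the metallothioneins MT2A and MT1X were among the lowest. Each run is the 250 bases before the RefSeq transcript start on GRCh38.p14, 5′ to 3′ on the gene's own strand, and this start can differ from the GENCODE gene bounds given later. The IRX1 window is chr5:3595582-3595831 (plus strand) and the IRX2 window chr5:2751678-2751927 (minus strand); capitals mark CCAAT, searched on both strands, which 32.01% of 35116 such windows contain. The MT2A window is chr16:56608334-56608583 and the MT1X window chr16:56682220-56682469 (both plus strand); capitals mark TGCACNC or TGCGCNC, the core of the metal response element, on either strand.
IRX1: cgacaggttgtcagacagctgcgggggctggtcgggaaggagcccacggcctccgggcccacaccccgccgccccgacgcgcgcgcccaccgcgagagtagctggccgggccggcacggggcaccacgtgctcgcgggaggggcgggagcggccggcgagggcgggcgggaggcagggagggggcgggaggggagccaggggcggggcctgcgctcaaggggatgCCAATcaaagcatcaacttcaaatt
IRX2: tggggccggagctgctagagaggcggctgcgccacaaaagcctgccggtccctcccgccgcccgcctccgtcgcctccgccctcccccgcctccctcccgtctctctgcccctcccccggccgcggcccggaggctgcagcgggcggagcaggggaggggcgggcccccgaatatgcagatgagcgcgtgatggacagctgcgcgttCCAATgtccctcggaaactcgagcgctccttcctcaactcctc
MT2A: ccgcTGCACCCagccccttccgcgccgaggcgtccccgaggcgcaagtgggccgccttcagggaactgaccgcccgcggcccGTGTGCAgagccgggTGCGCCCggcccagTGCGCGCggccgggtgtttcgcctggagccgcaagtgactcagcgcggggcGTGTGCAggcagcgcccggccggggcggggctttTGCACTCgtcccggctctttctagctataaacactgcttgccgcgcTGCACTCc
MT1X: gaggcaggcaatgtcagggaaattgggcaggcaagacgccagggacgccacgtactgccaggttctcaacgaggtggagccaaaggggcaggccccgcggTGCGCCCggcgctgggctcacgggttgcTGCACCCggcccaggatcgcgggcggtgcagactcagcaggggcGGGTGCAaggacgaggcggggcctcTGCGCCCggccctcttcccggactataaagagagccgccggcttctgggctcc
The element occurred 7 times in the MT2A window and 4 times in the MT1X window. The IRX1 window also holds a match, tgcgctc, left in small letters because only CCAAT is marked there. Of all windows 24.8% held at least 1 match and 0.370% held at least 4. The letters are a description of these windows and say nothing of binding in these cells.

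Depth per cell was similar across the 6 hashtags. Hashtag7 had 14568334 UMIs in all and a median of 12106 per cell, against medians of 11342 to 13189 in the others, whose totals ran from 5147862 to 12852510. No barcode occurred more than once. The median mitochondrial share was 3.13% in Hashtag7, the highest of the 6 (1.80% to 2.99% in the others). With cells held to at most 5% mitochondrial UMIs, a setting chosen after the data were seen, the IRX1 ratio given below as 3.30 was 3.50. Cells with UMIs of at least 3 G2M genes made up 61.3% of Hashtag7 and 61.5% to 66.8% of the others. All UMIs counted, so deeper cells reach this more readily. Outside the comparison the share was 81.9% in Hashtag10 and 48.2% in Hashtag15, at median depths of 17642 and 8258.5 UMIs. Scrublet, which seeks doublets, marked 3.54% of the Hashtag7 cells and 1.88% to 5.07% of the others. Just inside the gate (81 Hashtag7 cells, within 10% of it) IRX1 stood at 55.1 CPM and ALCAM at 35.7, and just outside it (48 cells) they stood at 59.3 and 29.6.

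Across the transcriptome, a gene was measured when Hashtag7 or the median of the compared hashtags reached 10 CPM and 10 counts. It was called higher when Hashtag7 was at least 1.5 times that median and above all 5 hashtags, and lower by the mirror rule. Of 8515 measured genes, 287 were called higher (3.37%) and 192 lower (2.25%). Every list count below is to be read against these shares over all genes. With TMM scaling the same calls came to 211 higher and 243 lower, so the share of higher calls moved from 59.9% to 46.5%, and with median-of-ratios scaling it was 43.5%. The median log2 ratio over all genes was 0.07. Hashtag7 was above all 5 hashtags, by any amount, in 33.4% of genes and below all 5 in 12.1%, while the 5 differed among themselves by at least 1.5 times in 18.8%. Chromosome medians lay between 0.03 (chromosome 8) and 0.12 (chromosome 20), so no chromosome stood apart.

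**Figure D1:**
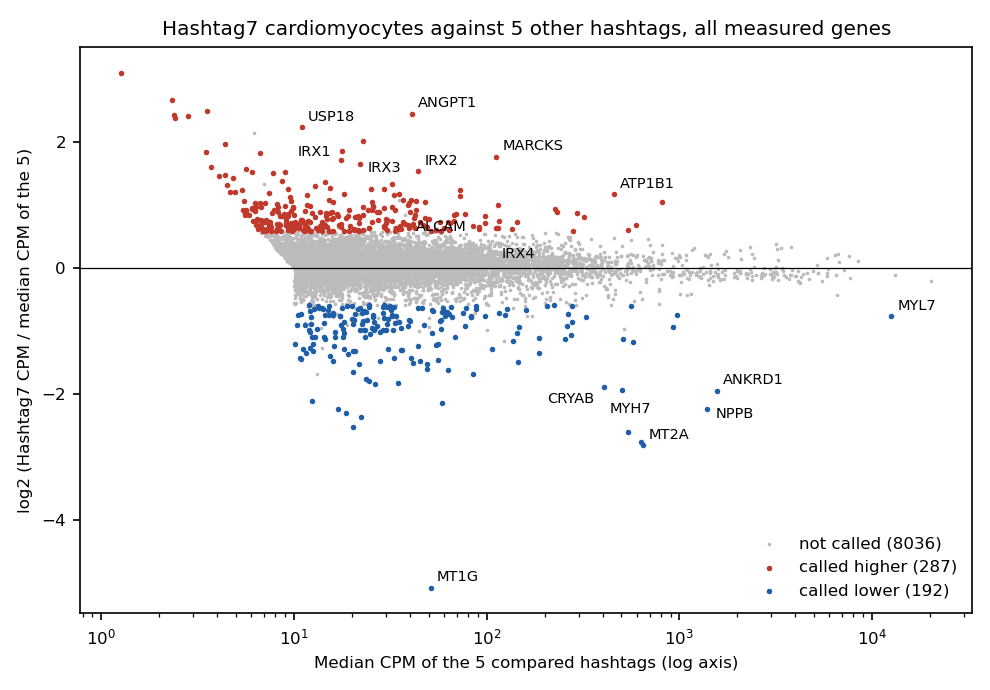
Each point is 1 of 8515 measured genes, with the median CPM of the 5 compared hashtags on the x axis (log scale) and the log2 ratio of Hashtag7 to that median on the y axis. The 287 genes called higher (red) and 192 called lower (blue) are marked, MT1G is the lowest point at a log2 ratio of -5.08, and the slanted left edge is the 10 CPM minimum.

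Iroquois genes of both clusters were among the leading genes of the higher side. IRX1 (chromosome 5, 3596054 to 3601403, plus strand, GENCODE 29 on GRCh38) was at 57.9 CPM in Hashtag7 (exact Poisson interval 54.1 to 61.98, counting error only) and at 17.6, 19.6, 31.3, 9.48 and 12.2 CPM in the compared hashtags. Hashtag6 was the nearest and Hashtag8 the lowest, and Hashtag7 lay above all of them, 3.30-fold over their median. IRX2 (chromosome 5, 2745845 to 2751662, minus strand) was at 129 CPM against 44.1, 50.4, 65.2, 36.8 and 28.6, a ratio of 2.92. IRX3 (chromosome 16, 54283304 to 54286763, minus strand) was at 69.4 CPM against 14.5, 23.4, 25.6, 21.9 and 17.1, a ratio of 3.17. For IRX2, as for IRX1, Hashtag6 came second and the groups did not overlap, and the same held for IRX3. Outside the comparison Hashtag1 and Hashtag2 had more IRX2 than Hashtag7, at 162 and 142 CPM, and less IRX3, at 55.8 and 62.7 CPM.

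The remaining measured member was not called. IRX4 (chromosome 5, 1877413 to 1887236, minus strand), the ventricular member of the chromosome 5 cluster, was at 115 CPM in Hashtag7 against 116, 100.1, 114, 110.4 and 95.2 and lay inside their range. IRX5 was below the 10 CPM minimum, at 8.17 CPM against 1.85 to 3.01. IRX6 was at most 0.141 CPM in all 6 hashtags. The Iroquois list thus counted 3 called higher and 0 lower of 4 measured members of 6, beside 3.37% and 2.25% over all genes. Its median log2 ratio was 1.61, and the choice of Hashtag7 had used IRX1. TMM and median-of-ratios scaling gave the same counts.

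Neighbouring transcripts were looked up after the Iroquois values were seen. C5orf38, whose start lies 468 bases from that of IRX2 on the opposite strand, was at 85.7 CPM in Hashtag7 and 20.0 to 56.1 in the others, a ratio of 2.11. CRNDE, a long noncoding RNA 1672 bases from IRX5, was at 161.9 CPM against 62.6 to 86.5, a ratio of 2.23. Both lay above all 5 hashtags. Hashtag1 and Hashtag2, outside the comparison, had more of both, C5orf38 at 120.6 and 130.0 CPM and CRNDE at 206 and 169 CPM. NDUFS6 on chromosome 5 and FTO on chromosome 16, further neighbours, were not called, with ratios of 1.09 and 1.18.

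ALCAM, the other gene in whose name these cells were singled out, did not reach the call. It was at 52.7 CPM in Hashtag7 (49.1 to 56.6) and at 44.01, 39.99, 39.3, 29.8 and 42.2 CPM in the compared hashtags. Hashtag7 was above each of them, nearest to Hashtag3, and the ratio to the median was 1.32. Without cells with UMIs of 3 or more G2M genes, which left 427 Hashtag7 cells, the ratio was 1.96. That setting also removes deeper cells more often, and the part of depth was not tested. Of 2 further hashtags outside the comparison, Hashtag1 had 99.9 CPM of IRX1 and 116 of ALCAM, and Hashtag2 had 120.2 and 112. Both therefore stood above Hashtag7 for both genes, so high IRX1 with high ALCAM is not particular to Hashtag7 in this pool.

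**Figure D2:**
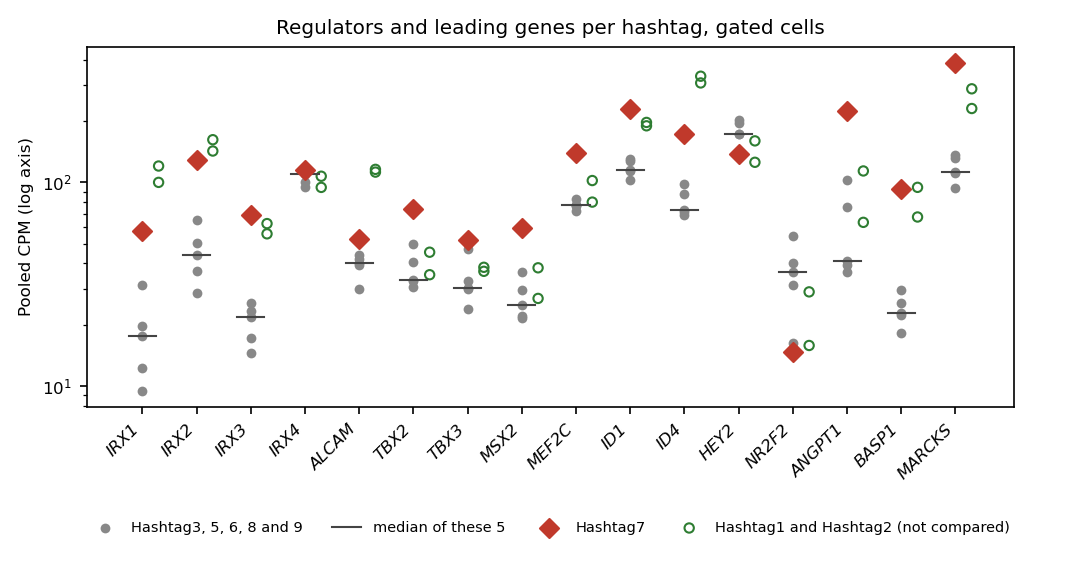
Pooled CPM per hashtag (log axis) for regulators and leading genes in gated cells, with Hashtag7 as red diamonds, the 5 compared hashtags as grey points with their median as a bar, and Hashtag1 and Hashtag2 as open green circles. IRX1, IRX2 and IRX3 in Hashtag7 (57.9, 129 and 69.4 CPM) lie above every grey point, IRX4 lies among them, and ALCAM (52.7 CPM) lies just above them.

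Shares of cells with a UMI were compared after every cell was thinned to 3000 UMIs, which left out 66 of the 1103 Hashtag7 cells and 21 to 93 cells of each other hashtag. IRX1 was found in 160 of 1037 Hashtag7 cells (15.4%, exact interval 13.3 to 17.8; 35.4% unthinned) and in 3.25% to 7.39% of the others (8.60% to 23.0% unthinned). Cells below the gate that were rich in endoderm genes should lack cardiac regulators and were taken as a rough gauge of free RNA. They carried any hashtag or none, so mixed barcodes may be among them, and TNNT2 was found in 63.7% of them. In 135 such thinned cells the IRX1 share was 2.22% at a median of 17790 UMIs before thinning. IRX2 was found in 32.8% of Hashtag7 cells, in 6.84% to 17.2% of the others and in 5.93% of the endoderm gene-rich cells. For IRX3 the shares were 18.6%, 3.82% to 6.43% and 1.48%. Every compared interval for IRX1, IRX2 and IRX3 lay below that of Hashtag7.

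ALCAM gave another picture. It was detected in 14.4% of Hashtag7 cells (12.3 to 16.7), in 7.33% to 12.8% of the others and in 13.3% of the endoderm gene-rich cells. Its interval overlapped those of all compared hashtags but Hashtag8 and lay within that of the endoderm gene-rich cells (8.10 to 20.3). Whether those cells make ALCAM themselves was not tested. Below the gate, Hashtag7 cells (260 thinned) had shares of 7.69% for IRX1, 20.0% for IRX2 and 9.23% for ALCAM.

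**Figure D3:**
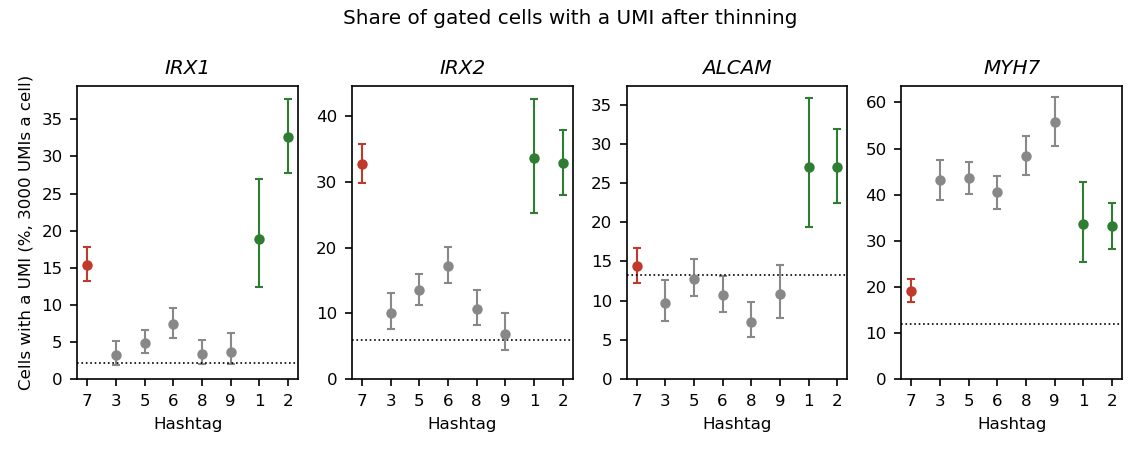
Percentage of gated cells with at least 1 UMI after thinning to 3000 UMIs per cell, by hashtag, with exact 95% intervals as bars and the share in endoderm gene-rich cells as a dotted line. IRX1 and IRX2 in Hashtag7 (15.4% and 32.8%) lie above the 5 compared hashtags, ALCAM (14.4%) lies near the dotted line, and MYH7 (19.1%) lies below the 5.

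Within Hashtag7 the 160 thinned cells with an IRX1 UMI were compared with the 877 without, whose median depths were 10447 and 13046 UMIs. Thinned UMIs set this split, but levels came from all UMIs, so the 877 still held 378 IRX1 UMIs (30.1 CPM against 246). The 160 cells had 226.5 CPM of IRX2 against 114 in the 877, a ratio of 1.98 (2.13 to 4.51 within the other hashtags). ALCAM stood at 90.4 against 46.7 CPM, a ratio of 1.94 (0.94 to 2.34), and the homeobox gene HOXB2 at 81.9 against 40.7, a ratio of 2.01. BASP1 was also higher in them, 152.6 against 84.1 CPM, in Hashtag7 as in all 5 others. FGF12, an intracellular partner of sodium channels, was lower, 3.19 against 26.3 CPM, from 6 and 331 UMIs. It was lower in the IRX1-positive cells of all 5 others as well. Each compared hashtag had fewer IRX1-positive cells than Hashtag7, so the ratios there rest on fewer cells. NPPB stood at 121 against 322 CPM, a ratio of 0.377, but it was higher in the IRX1-positive cells of 2 of the 5 others, and the ratios there ran from 0.0667 to 1.77. Cells of 1 sample are not replicates, so these values describe this sample only. With every cell holding an IRX1 UMI before thinning removed, a wider set chosen after the data were seen, the ALCAM ratio was 1.08.

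Several regulators of heart development were called higher. TBX2, a T-box repressor that keeps non-chamber muscle from chamber differentiation, was at 74.00 CPM in Hashtag7 against 40.8, 30.7, 33.1, 49.7 and 32.8. Its relative TBX3 was at 51.96 CPM against 46.96, 29.96, 30.1, 32.6 and 23.9. Hashtag7 lay above all 5 for both, 2.23-fold and 1.72-fold over the medians, with Hashtag3 close behind for TBX3. Hashtag14 and Hashtag15, outside the comparison, had more TBX3 than Hashtag7, at 104 and 53.6 CPM. MSX2, a homeobox target of BMP signalling, was at 59.9 CPM against 21.6 to 36.4, a ratio of 2.39. MEF2C, a core muscle transcription factor, was at 139.8 CPM against 77.3, 82.5, 76.4, 72.2 and 77.1, a ratio of 1.81, and the 5 compared values for it lay close together.

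NKX2-5, the early cardiac homeobox factor, was at 818.8 CPM against 462.1 to 767.4, a ratio of 1.52, so Hashtag6 came near to it. TBX5 (72.6 CPM against 65.3 to 79.9) and HAND1 (125 against 128 to 156), which act in left ventricular development, were not called. Of 21 measured cardiac transcription factors, 5 were called higher (also SRF and MEIS2, ratios of 1.52 and 1.51) and 1 lower, the homeodomain-only protein HOPX at 5.42 CPM against 7.81 to 19.8. The shares over all genes were 3.37% higher and 2.25% lower. With TMM or median-of-ratios scaling the count was 2 higher and 1 lower of 20. The median log2 ratio of the list, 0.06, turned to -0.02 with median-of-ratios scaling.

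Atrial genes were lower or uncalled. NR2F2, the nuclear receptor that sets atrial identity, was at 14.7 CPM in Hashtag7 against 54.3, 31.4, 16.3, 36.2 and 40.2. Hashtag6 was nearly as low, and the other 4 were above both. MYL7, the atrial light chain and 1 of the gate genes, was at 7386 CPM against 9731 to 13908, 1.7-fold lower than the median, as a value the rule itself used. The atrial list counted 0 higher and 4 lower of 8 measured members, NPPA among the lower, beside 3.37% and 2.25% over all genes. NR2F1, the relative of NR2F2, was below the minimum at 1.99 CPM against 1.04 to 7.73.

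Ventricular and conduction lists were divided. MYL2 (12.1 CPM against 14.4 to 50.5), the ventricular light chain, and GJA1 (14.7 against 24.98 to 56.9), which encodes the gap junction protein connexin 43, were below all 5 hashtags. LBH, a cofactor active in the early ventricle, was above them at 239 CPM against 109 to 165. HEY2, a compact-layer repressor (138 against 135 to 203), and MYL3 (3963 against 2872 to 3802) were not called. Of 10 measured ventricular genes, 1 was called higher and 3 lower, beside 3.37% and 2.25% over all genes. The compact and trabecular list had 5 higher (IRX1, IRX2, IRX3, SLIT2 and GJA5) and 2 lower (NPPA and NPPB) of 10. GJA5, connexin 40 of the trabecular and conducting muscle, was at 11.5 CPM against 4.18 to 9.18. With LIMS2, a focal adhesion adaptor (38.3 against 51.3 to 69.3), the connexin and intercalated disc list counted 1 higher and 2 lower of 13. The compact and trabecular and the connexin counts stand beside the same shares over all genes.

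In the pacemaker and conduction list TBX2, TBX3 and ETV1 were called higher and TBX18 lower, of 7 measured. Over all genes the shares were 3.37% and 2.25%. With TMM or median-of-ratios scaling the list counted 2 higher. ETV1, an ETS factor of fast-conducting muscle, was at 142 CPM against 86.7 to 106. TBX18, a sinus node and epicardial factor, was at 3.98 against 9.48 to 11.3. The pacemaker channel gene HCN4 was within the range of the others at 60.2 CPM against 55.8 to 93.9, and SHOX2 was below the minimum at 0.824 CPM against 1.04 to 7.14.

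The BMP and TGF beta list counted 5 higher and 3 lower of 17 measured, beside 3.37% and 2.25% over all genes. ID1, a helix-loop-helix inhibitor induced by BMP, was at 229.7 CPM in Hashtag7 against 127, 114, 129.5, 115 and 103, a ratio of 2.00. ID4 was at 173 CPM against 97.7, 72.98, 71.5, 87.7 and 68.8, a ratio of 2.37. No compared hashtag overlapped Hashtag7 in either gene. Outside the comparison Hashtag1 and Hashtag2 had more ID4 than Hashtag7, at 332 and 308 CPM, and less ID1, at 190 and 197 CPM. ID3 (542.1 CPM, ratio 1.84) and the feedback inhibitors SMAD6 (86.4, 1.72) and SMAD7 (73.9, 1.86) completed the 5. On the lower side INHBA, which encodes the activin subunit beta A, was at 26.4 CPM against 91.5, 44.6, 54.8, 85.2 and 152, 3.22-fold lower. The activin and BMP antagonist FST (6.73 against 10.9 to 25.4) and TGFB1 (13.6 against 20.1 to 25.4) were lower as well. FST turned with the gate: without it the FST ratio was 1.097.

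WNT pathway genes were called in both directions. WNT2, a ligand of the early heart field, was at 37.1 CPM against 18.7, 13.6, 14.4, 15.9 and 9.52, a ratio of 2.58. Hashtag15, outside the comparison, had more WNT2, at 62.0 CPM. WNT5B (61.3 CPM, ratio 1.66), the target APCDD1 (24.2, 1.99), the nuclear effector LEF1 (20.0, 1.69) and the ligase gene ZNRF3 (20.4, 1.53) were called higher. Of the secreted frizzled-related inhibitors, FRZB was higher, 11.3 CPM against 3.80, 4.59, 3.58, 3.69 and 3.50, and SFRP2 was lower, 3.50 CPM against 28.96, 16.1, 11.2, 20.2 and 30.5. Hashtag7 was outside the range of the 5 in opposite directions for the pair, 3.05-fold over and 5.76-fold under the medians. Among hashtags not compared, Hashtag1 and Hashtag2 had more FRZB, at 31.7 and 25.6 CPM, and Hashtag10 less SFRP2, at 1.77 CPM. In all 6 were called higher and 2 lower (SFRP2 and the receptor FZD7) of 19, and 5 higher with TMM scaling. Shares over all genes were 3.37% higher and 2.25% lower. CRABP2, a retinoic acid carrier, was at 432 CPM against 196 to 301, and HOXB2, a retinoid-responsive homeobox gene, at 46.1 against 15.7 to 36.4, each the only call in its list (of 7 retinoic acid genes and 3 HOX genes measured). No NOTCH pathway gene of 6 measured was called.

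Of the sarcomere genes, more were called lower than higher. MYH7 (chromosome 14, 23412738 to 23435718, minus strand), the slow beta myosin heavy chain that increases as ventricular muscle matures, was at 130.1 CPM in Hashtag7 (124 to 136) against 484, 502, 434, 607 and 1022. Hashtag7 was below all 5, 3.85-fold under their median, and Hashtag9 was the highest. Outside the comparison Hashtag10 was about as low at 126 CPM, and the rest were at 167 to 565. MYH6, the neighbouring gene of the alpha chain, was at 4151 CPM against 3069.8 to 3834 and was not called. These are similar paralogs, so reads may be divided between them by the counting. MYH7 was found in 19.1% of thinned Hashtag7 cells and in 40.5% to 55.8% of the others, with 11.9% in the endoderm gene-rich cells.

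Of 35 measured sarcomere genes, 12 were called lower and 1 higher, beside 2.25% and 3.37% of all genes. ANKRD1, a titin-associated stress protein, was at 405 CPM against 2257, 989, 572, 1568 and 1581, 3.87-fold lower. CRYAB, a small heat shock protein of the Z-disc, was at 109.6 CPM against 331, 405, 325, 406 and 497, 3.7-fold lower. Hashtag7 was below all 5 in both genes, and Hashtag6 was nearest to it. Outside the comparison Hashtag10 was lower than Hashtag7 in both, at 144 CPM of ANKRD1 and 63.5 of CRYAB. Hashtag1 and Hashtag12 were lower in CRYAB, at 88.9 and 99.4 CPM, and all remaining values were higher. TNNI3, the adult cardiac troponin I, was at 60.9 CPM against 147, 118, 137, 104 and 141, while the fetal form TNNI1 was not called (6521 against 5328 to 6149). TNNT1, a slow skeletal troponin T, was at 2.88 CPM against 4.92 to 13.5. ACTA1, TCAP, MYOZ2, CSRP3, MYL2, MYL7 and ACTN2 made up the rest, with ratios of 0.355 (ACTA1) to 0.660 (ACTN2), and MYL7 and ACTN2 had helped to define the gate. ACTA2, smooth muscle actin, was the gene called higher, at 960.5 CPM against 285.8 to 810.6. The other gate genes TNNT2, TTN, TNNC1, MYL4 and MYBPC3 were not called, with ratios of 0.858 to 1.16.

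Natriuretic peptides were lower too. NPPB (chromosome 1, 11857464 to 11858931, minus strand), whose product BNP is released by stretched muscle, was at 294 CPM against 1814, 725, 513, 1394 and 1916. NPPA was at 233 CPM against 788, 498, 428, 512 and 701. Hashtag7 was below all 5 for both, 4.74-fold and 2.19-fold under the medians, and Hashtag6 was the next lowest each time. Outside the comparison, Hashtag10 (54.6 and 84.4 CPM) and Hashtag12 (98.2 and 124 CPM) were lower than Hashtag7 for NPPB and NPPA. Hashtag1 was level with it for NPPB at 294 CPM, and all remaining values were higher. NPPB was found in 15.6% of thinned Hashtag7 cells and 21.1% to 40.9% of the others, with 22.2% in the endoderm gene-rich cells. So the Hashtag7 share lay below that of the endoderm gene-rich cells. These held 435 CPM of NPPB, more than the gated Hashtag7 cells, so they cannot give a free RNA level for it. The 5% of cells richest in NPPB held 84.2% of its UMIs in Hashtag7 and 52.1% to 81.4% in the others.

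Metallothioneins were the lowest group in Hashtag7. MT2A was at 91.1 CPM against 644, 192, 556, 888 and 1211. MT1X was at 92.8 CPM against 634, 183, 574, 811 and 1216. MT1E was at 88.7 CPM against 542, 157, 397, 675 and 865. In each, Hashtag5 came next above Hashtag7 and Hashtag9 was the highest, and the ratios were 7.07-, 6.83- and 6.11-fold below the medians. MT1F (4.32 against 6.85 to 34.2) and MT1G were lower as well, so the list counted 5 lower and 0 higher of 6 measured. The shares over all genes were 2.25% lower and 3.37% higher. The remaining member, the zinc exporter SLC30A1, was within the others' range at 26.0 CPM against 23.2 to 63.9. MT3, outside the list and looked up afterwards, was at 3.78 CPM against 15.0 to 29.1. These genes lie side by side on chromosome 16, from MT2A at 56608199 to 56609497 to MT1X at 56682424 to 56684196, and their near-identical sequences make the division of reads between them uncertain.

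The metallothionein UMIs were concentrated in few cells. MT1G stood at 1.51 CPM against 40.9, 12.8, 51.2, 52.4 and 67.8, but its 22 UMIs in Hashtag7 came from 12 cells, and its 165 to 544 UMIs in the others from 14 to 26 cells each. A single Hashtag6 cell held 287 of that hashtag's 544. For MT2A the richest 5% of cells held 71.7% of the UMIs in Hashtag7 and 57.7% to 84.1% in the others, and cells with the transcript had 3.62 UMIs on average in Hashtag7 against 7.54 to 31.2. After thinning, MT2A was found in 11.4% of Hashtag7 cells, 13.5% to 33.9% of the others and 33.3% of the endoderm gene-rich cells, so the share in those cells below the gate was near that of the highest gated hashtag.

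**Figure D4:**
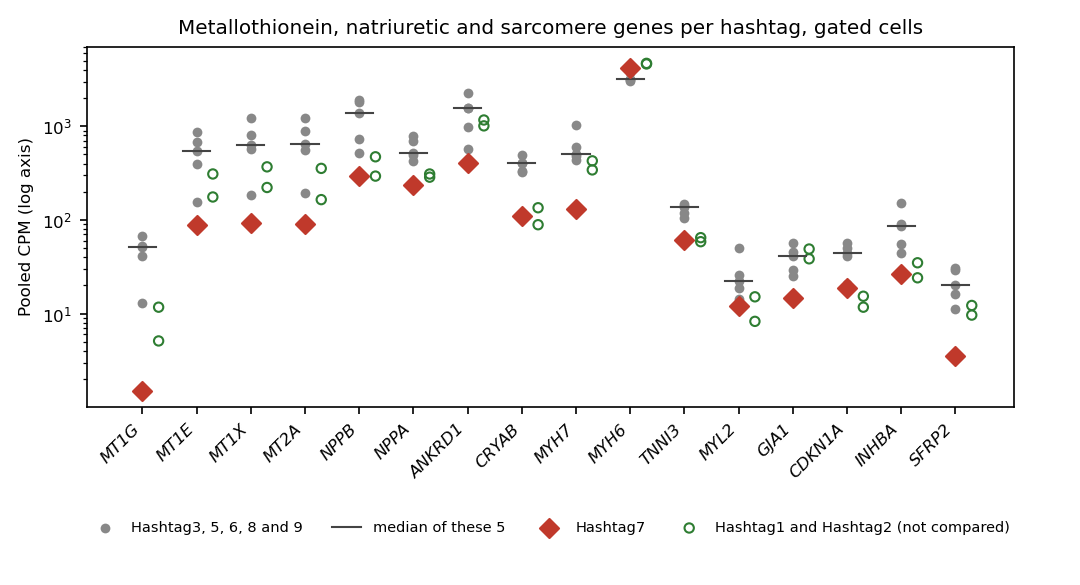
Pooled CPM per hashtag (log axis) for metallothionein, natriuretic, sarcomere and other genes in gated cells, with symbols as in the plot of regulators. Hashtag7 lies below every compared hashtag in all genes shown but MYH6, which was at 4151 CPM against 3069.8 to 3834. Hashtag1 and Hashtag2 lie below the median bar in all but MYH6, where both lie above it, and GJA1, where Hashtag1 does.

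Called p53 targets and stress factors were lower, and called chaperones higher. CDKN1A, the p53-induced cell cycle inhibitor p21, was at 18.6 CPM against 20.8, 44.1, 40.9, 50.5 and 56.3, and Hashtag3 was close to Hashtag7. BBC3 (13.7 against 13.8 to 34.4) and ZMAT3 (35.8 against 59.02 to 69.9), further p53 targets, made 3 lower and 0 higher of 16 measured. Under either other scaling 4 were lower, and the shares over all genes were 2.25% lower and 3.37% higher in the main values. ATF3 (46.1 against 52.99 to 136) and DDIT3 (19.4 against 23.5 to 65.9), transcription factors of the stress response, were lower, ATF3 as the 1 call among 22 immediate early and heat shock genes. In the unfolded protein and amino acid list, the chaperone HSPA5 (206.7 CPM, ratio 1.53), SDF2L1 (46.3, 1.70), PDIA4 (74.8, 1.61) and the serine synthesis gene PSAT1 (23.3, 2.00) were higher, so 4 were higher and 1 lower of 13, and 3 higher and 2 lower under either other scaling.

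Metabolism and cell cycle showed few calls. None of 28 glycolysis and hypoxia genes, 20 oxidative and fatty acid genes, 21 S phase genes and 32 G2M genes was called in either direction. With the other scalings 2 or 3 glycolysis genes of 29 and 1 oxidative gene of 20 were called lower. The median log2 ratios of the oxidative and G2M lists were within 0.01 of 0 and turned negative with those scalings, -0.07 to -0.10. Of 19 sterol genes 1 was called higher, and 17 had a ratio above 1, as did 64.4% of all measured genes. Calls over all genes were 3.37% higher and 2.25% lower. The median log2 ratio of the sterol list was 0.33, and 0.22 with median-of-ratios scaling.

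Ion handling differed in single genes. KCNJ5, which encodes an inward rectifier subunit of the acetylcholine-gated channel, was at 29.4 CPM against 13.04 to 15.8, and KCNJ8, of the ATP-sensitive channel, at 12.5 against 16.4 to 38.1. ITPR1, the inositol trisphosphate receptor of the internal calcium store, was at 22.4 CPM against 7.73 to 14.1, a ratio of 2.39. STIM1, the store's calcium sensor, was at 10.6 against 4.66 to 8.19. ATP1B1, the beta subunit of the sodium pump, was at 1032 CPM against 451, 458, 564, 488 and 388, a ratio of 2.26. None of 9 depolarising channel genes was called. Of 19 calcium handling genes 2 were called higher and 0 lower, beside 3.37% and 2.25% over all genes.

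Surface and matrix genes were called in both directions. Of 24 measured surface genes, GPC3 (32.8 CPM against 11.1 to 24.8), a glypican, PLXNA2 (16.95 against 7.44 to 16.2), a semaphorin receptor, and LRRN4 (11.7 against 4.86 to 9.26) were higher and the tetraspanin CD9 lower (4.53 against 7.14 to 12.8). GPC3, PLXNA2 and LRRN4 were higher still in Hashtag1 and Hashtag2, outside the comparison, GPC3 at 186 and 145 CPM. Without the gate the CD9 ratio was 1.15. With TMM or median-of-ratios scaling 2 were higher of 23, the LRRN4 ratio being 1.49 and 1.47. SIRPA and VCAM1, which are used to sort cardiomyocytes, were not called, at 30.4 CPM against 24.1 to 31.4 and 204 against 109 to 168. In the matrix list FBN2, fibrillin of embryonic microfibrils, was at 559.5 CPM against 313 to 353 and fibronectin FN1 at 46.7 against 17.3 to 31.9. The collagen genes COL2A1 (100.4 against 110.0 to 216), COL4A1 and COL9A1 were lower, so 2 were higher and 3 lower of 21. Among imprinted genes DIRAS3 was higher (11.1 against 3.48 to 6.75) and H19 lower (25.3 against 31.3 to 71.5) of 17. The surface, matrix and imprinted counts stand beside 3.37% higher and 2.25% lower over all genes.

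Outside the lists, ANGPT1 had the largest ratio of the genes with at least 50 CPM. This ligand of the endothelial receptor TIE2, which the myocardium secretes, was at 224 CPM in Hashtag7 against 36.1, 75.2, 103, 40.9 and 39.4. Hashtag6 and Hashtag5 were the next highest, and the ratio was 5.49. It was found in 33.8% of thinned Hashtag7 cells and 7.98% to 21.5% of the others. USP18, which removes the interferon-induced modifier ISG15, was at 51.9 CPM against 10.97, 10.1, 17.8, 8.74 and 11.5, a ratio of 4.73. Hashtag1 and Hashtag2 were at 11.03 and 10.00 CPM, while Hashtag10 and Hashtag12, also outside the comparison, were at 46.5 and 47.6 CPM, close to Hashtag7. Its paralog USP41 was near 0, and reads may be divided between them by the counting.

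Interferon-induced genes were therefore looked up after USP18 was seen. ISG15 was at 65.3 CPM against 51.7 to 61.6 and IFIT1 at 13.1 against 8.01 to 16.1, and neither was called, nor were IFITM3, BST2 and B2M. IFI16 (11.7 against 3.95 to 9.84), UBE2L6 (53.8 against 26.2 to 38.3) and ADAR (45.9 against 27.97 to 37.5) were called higher.

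BASP1 and MARCKS, which encode membrane-bound proteins of the cell cortex, were both high. MARCKS was at 384 CPM against 93.9, 112, 112, 132 and 136, and it was found in 58.9% of thinned Hashtag7 cells and 19.7% to 29.2% of the others. BASP1 was at 92.5 CPM against 18.1, 22.2, 29.5, 22.9 and 25.4. No compared hashtag overlapped Hashtag7, and the ratios were 3.42 and 4.04. Hashtag2, outside the comparison, had slightly more BASP1 than Hashtag7, at 94.5 CPM. The ADP-ribosyltransferase gene ART5 (64.7 CPM, 3.65), the kinase gene DGKI (81.3, 2.53), the adenylyl cyclase gene ADCY5 (70.4, 2.40) and the transcription factor gene NFIA (78.3, 2.12) were also among the leading genes outside the lists. The 5% of cells richest in ART5 held 82.1% of its UMIs in Hashtag7 and 72.3% to 85.4% in the others. Several axon guidance genes, picked because they were called, were also higher. SLIT2 was at 79.5 CPM against 30.5 to 40.2, SEMA3A at 31.9 against 10.7 to 14.3 and EPHA4 at 41.0 against 16.5 to 21.4. In Hashtag1 and Hashtag2, outside the comparison, SEMA3A and EPHA4 were higher than in Hashtag7, EPHA4 at 77.9 and 129 CPM.

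The lowest genes outside the lists were mixed in kind. NMB, the neuropeptide neuromedin B, was at 13.2 CPM against 50.3, 56.02, 58.6, 91.4 and 129, 4.45-fold lower. IGFBP6, a binding protein of insulin-like growth factors, was at 20.6 CPM against 37.4 to 78.1. AKAP6, an anchor at the nuclear envelope, was at 20.5 against 33.04 to 62.2, and RRAD, a small GTPase that restrains calcium channels, at 130.4 against 177 to 415. LGALS3, ABCA7, FGF12, CEBPD, SYNPO2L and APOBEC2 had ratios of 0.394 (LGALS3) to 0.467 (APOBEC2). The caveolar genes CAV1 (7.34 CPM against 17.6 to 32.3), CAV2 (22.4 against 27.0 to 42.7) and CAVIN1 (32.7 against 47.2 to 67.6), looked up afterwards, were lower as well.

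**Figure D5:**
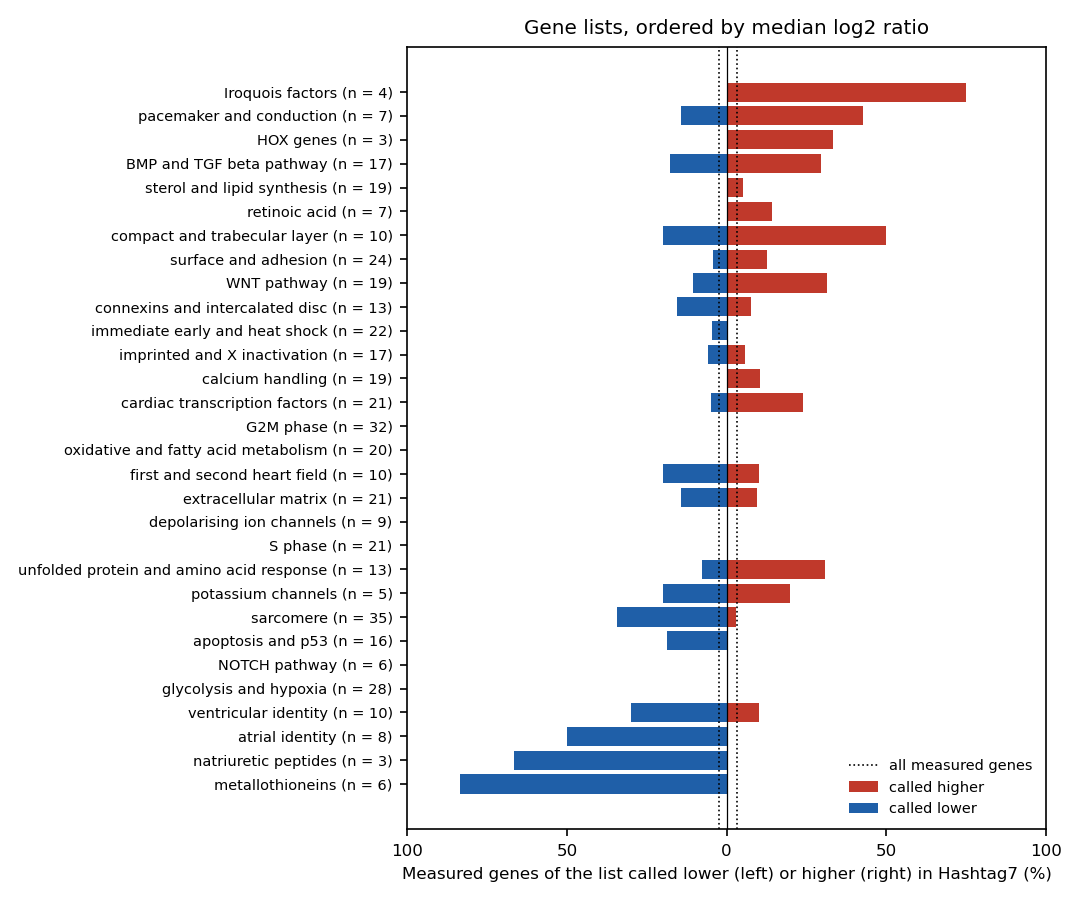
Percentage of each list's measured genes called higher (red, right) or lower (blue, left) in Hashtag7, ordered by the list's median log2 ratio, with the percentages over all 8515 measured genes (3.37 and 2.25) as dotted lines. Metallothioneins (5 of 6), natriuretic peptides (2 of 3), atrial genes (4 of 8) and sarcomere genes (12 of 35) have the largest shares on the lower side, and Iroquois factors (3 of 4) and the compact and trabecular list (5 of 10), which share IRX1, IRX2 and IRX3, on the higher side.

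Cardiomyocyte markers outside the gate were within the range of the others in sum. The 8 further cardiomyocyte genes summed to 22546 CPM in Hashtag7 and 18600 to 22970 in the others, with MYH7 the 1 called lower and NKX2-5 the 1 called higher. Stromal markers (11 genes) summed to 83.7 CPM against 77.4 to 118, epicardial markers (8, with MSLN at 0) to 7.28 against 14.8 to 21.6, and endothelial markers (8, with CDH5, PECAM1, TEK and ERG at 0) to 3.36 against 4.61 to 10.1. Endoderm markers (9 genes) summed to 113 CPM against 132 in Hashtag6 and 56.9 to 74.2 in the other 4. SERPINA1 was at 27.7 CPM in Hashtag7, 30.6 in Hashtag6 and 5.24 to 6.89 in the other 4, AFP at 17.6, 18.3 and 5.54 to 7.58, and APOA2 at 7.41, 19.2 and 0.984 to 1.55. Hashtag7 and Hashtag6, the highest of the 6 in IRX1, were thus also the highest of the 6 in SERPINA1, AFP and APOA2. This did not hold for APOA1, the most abundant of the endoderm markers, at 57.9, 60.6 and 42.7 to 59.8 CPM, where Hashtag8 lay above Hashtag7. The remaining endoderm markers were at most 1.51 CPM. Epithelial markers (8) summed to 323 against 419 to 490, KRT19 being called lower at 152 CPM against 202.7 to 313.7. Neural markers (8, with NEUROD1 and SOX10 at 0) summed to 181 CPM against 128 to 191 and pluripotency markers (7) to 10.0 against 9.10 to 14.4. Apart from TBX18 and KRT19, no marker of another cell type was called. Most of these markers, and all endothelial and pluripotency markers, lay below the 10 CPM minimum and so could not be called. The part of such cells in the gene values above was not tested.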

How the data were processed

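Gene expression and hashtag UMIs were measured in 1 pool. The authors deposited 1 matrix of raw counts with 36601 genes and 13 hashtags for 24038 barcodes, made with Cell Ranger 4.0.0 per the file headers and on hg38 per the submitters' processing notes. No source used here gives the annotation release, the alignment or barcode calling settings, or whether counting used strand. Row names and barcode names were deposited as text. The matrix held 36601 gene rows, and GENCODE 29 on GRCh38, used for positions, held 34616 of their identifiers.

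The members, the 30 gene lists (591 genes) and the calling rule were chosen with earlier results of these data known. Counts were summed over the gated cells of each hashtag and divided by the summed gene UMIs to give CPM. The cell filter removed 2415 barcodes, and 11304 passing barcodes were given to no hashtag. With scipy 1.17.1 under Python 3.11.15, levels were given exact Poisson intervals and shares Clopper-Pearson intervals, each at 95% and for counting error only. PCR duplicates are collapsed by the UMI. Zero counts were set to a floor of 3 counts in ratios. Shares came from cells thinned to 3000 UMIs. Scrublet (scanpy 1.11.5, expected rate 0.008 per 1000 barcodes) marked 989 barcodes (4.57%, against 19.2% expected), which were kept in the main values, so doublets remain. The calling rule was tested on simulated data. No free RNA correction was applied.

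Named genes were a fixed set, up to 4 called genes per list by size of ratio, and the 10 protein-coding genes outside the lists on each side with the largest ratio at 50 CPM or more. Further genes that complete a list's calls, and those said to be looked up afterwards, were chosen after their values were seen. Some genes that lists count are not reported here by name. Alternatives were other scalings (TMM with edgeR 4.0.16, median of ratios), cell filters, gates, hashtag thresholds, CPM minimums, call ratios, per-cell means, and leaving out doublets, G2M cells, NR2F2-positive or IRX1-positive cells, or each hashtag in turn. The 7 other hashtags were not compared, because the comparison was defined on these 6.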

Additional observations from a re-analysis of the deposited data

Results flagged for a closer look

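Among the 5 compared hashtags, 1 stood apart from the other 4 by Dixon's criterion (a gap of more than 0.71 of the whole range) in 6 of 96 values examined, and chance flags about 1 in 20. FRZB was at 4.59 CPM in Hashtag5, above the other 4, and Hashtag7 was higher still. FN1 was at 17.3 CPM in Hashtag6, below the other 4. ADCY5 was at 41.9 CPM in Hashtag6, above the other 4 and below Hashtag7. ABCA7 was at 64.7 CPM in Hashtag3, below the other 4 and above Hashtag7. The share of cells past the gate was 71.9% in Hashtag5, below the other 4, and the median depth was 11342 UMIs per cell in Hashtag3, below the other 4.

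Hashtag1 and Hashtag2, outside the comparison, had more of both label genes than any compared hashtag. IRX1 was at 99.9 CPM in Hashtag1 and 120.2 CPM in Hashtag2, and ALCAM at 115.8 and 112.2 CPM. Only 131 of 404 and 386 of 751 of their filtered cells passed the gate (32.4% and 51.4%, against 71.9% to 83.9% in the compared hashtags), and the part of that difference in the values was not tested.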

How the results depend on the processing

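The number of genes called higher, 287, became 1105 with no minimum CPM, 87 at 50 CPM or more, 481 with hashtags holding at least 90% of at least 50 hashtag UMIs (82 cells in the smallest hashtag), 580 without cells with 3 or more G2M genes (134 cells in the smallest) and 63 at a ratio of 2. The number called lower, 192, became 506, 64, 332 (without cells with 3 or more G2M genes) and 75 in the same settings. With the hashtag thresholds it stayed within 1.5 times. Leaving out each compared hashtag in turn (leave-one-out) gave 248 to 306 higher and 178 to 228 lower, an IRX1 ratio of 3.12 to 3.89 and an ALCAM ratio of 1.28 to 1.33. The ALCAM ratio of 1.32 became 1.96 without cells with 3 or more G2M genes, a set that depends on depth, and 1.08 without cells with an IRX1 UMI. CD9 turned to a ratio of 1.15 and FST to 1.097 without the gate. Ratios of 91 other named genes under 19 alternatives were set against the spread (standard deviation of log CPM) among the compared hashtags. Of these 1728 ratios, 1630 moved by less than that spread, 96 moved further and 2 turned. Turning was counted for called genes only, so a change of direction in an uncalled gene is not among the 2. The causes were not tested. No paired analysis was possible because the hashtags carry no shared replicate numbers. Depth limits genes near 10 CPM and genes in few cells, such as MT1G.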
